A study of Mus musculus with 12 samples.

Results

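The nuclear receptor genes *Ppara*, *Ppard*, *Rxra*, *Esrra*, *Esrrb*, *Esrrg*, *Thra* and *Thrb* and the coactivator genes *Ppargc1a* and *Ppargc1b* were followed in a map of trimethylated lysine 4 of histone H3 (H3K4me3), a histone mark of active promoters. Every peak that the deposited table assigns to one of these genes by name was taken, which gave 10 peaks, 1 for each of the 10 genes, out of 15848 union peaks in all. Chromatin immunoprecipitation with sequencing (ChIP–seq) measured the mark in flow-sorted nuclei of heart muscle cells, cardiomyocytes (CMs), from adult mice. Controls (CtrlCre, n = 3 libraries) had the genotype αMHC-Cre pos/+;Cpt1b +/+, and mutants (Cpt1bcKO, n = 3 libraries) had the genotype αMHC-Cre pos/+;Cpt1b fl/fl. Both groups carried the Cre recombinase, driven by the αMHC promoter in CMs from embryonic stages on, so an effect of Cre alone was shared by them. *Cpt1b* encodes the muscle enzyme through which long-chain fatty acids enter mitochondria for oxidation, and the comparison asks where H3K4me3 differs once CMs lack it. Nothing in the labels says how many mice gave each library, so p-values measure the spread between these libraries.

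Nuclear receptors are transcription factors that a lipid-soluble ligand switches on, and many of them bind DNA as a pair with the retinoid X receptor RXRα, the product of *Rxra*. PPARα (*Ppara*) and PPARδ (*Ppard*) sense fatty acids and drive the genes of their uptake and oxidation, the oestrogen-related receptors (*Esrra*, *Esrrb*, *Esrrg*) have no known natural hormone and drive genes of the respiratory chain and the Krebs cycle, and the thyroid hormone receptors (*Thra*, *Thrb*) set heart rate, calcium handling and myosin type. PGC-1α (*Ppargc1a*) and PGC-1β (*Ppargc1b*) do not bind DNA themselves but are recruited by these receptors, and together the set is known for raising the oxidative capacity of the maturing heart.

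The sequence just upstream of transcription starts inside the peaks is shown for the genes on which the comparisons below turn. The mark was counted over whole peaks, of which these bases are only a part. Each line gives the 150 bases before a start, 5′ to 3′ on the strand of the gene, on the mouse build GRCm38.p6, which has the coordinates of mm10. Sequences are from the RefSeq promoter table, except that of the proximal start of *Ppargc1a*, which was read from the genome at the start given in the deposited table. Capitals mark a match to a searched motif. The 2 windows of *Esrrg* lie in different peaks, that of the 5′ peak and that of a peak 43209 bases downstream, and the 2 windows of *Ppargc1a* lie in the peak assigned to the gene and in a peak upstream of it.
Ppara, chr15:85735626-85735775, plus strand: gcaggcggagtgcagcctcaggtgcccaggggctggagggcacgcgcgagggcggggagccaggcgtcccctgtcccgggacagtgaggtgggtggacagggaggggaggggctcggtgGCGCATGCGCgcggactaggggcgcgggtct
Rxra, chr2:27677051-27677200, plus strand: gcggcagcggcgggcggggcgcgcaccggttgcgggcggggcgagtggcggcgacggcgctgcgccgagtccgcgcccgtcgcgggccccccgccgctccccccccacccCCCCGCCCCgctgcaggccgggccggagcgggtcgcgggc
Esrrg, 5′ start, chr1:187608856-187609005, plus strand: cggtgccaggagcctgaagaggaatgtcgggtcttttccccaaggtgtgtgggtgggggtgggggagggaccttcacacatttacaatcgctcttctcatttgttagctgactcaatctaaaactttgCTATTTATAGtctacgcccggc
Esrrg, start in the peak at 43209 bases, chr1:187652091-187652240, plus strand: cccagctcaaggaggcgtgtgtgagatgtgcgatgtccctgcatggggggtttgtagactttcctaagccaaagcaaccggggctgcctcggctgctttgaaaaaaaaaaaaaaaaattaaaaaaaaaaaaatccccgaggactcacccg
Ppargc1a, proximal start, chr5:51553923-51554072, minus strand: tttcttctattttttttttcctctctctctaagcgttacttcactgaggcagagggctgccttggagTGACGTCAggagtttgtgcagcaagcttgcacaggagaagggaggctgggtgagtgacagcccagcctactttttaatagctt
Ppargc1a, start in the upstream peak, chr5:51567726-51567875, minus strand: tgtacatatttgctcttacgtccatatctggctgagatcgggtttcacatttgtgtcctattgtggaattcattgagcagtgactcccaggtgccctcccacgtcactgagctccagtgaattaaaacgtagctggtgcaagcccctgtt

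The start regions differed in base composition and in the motifs they hold. Windows of 300 bases, from 250 before to 50 after a start, were searched on both strands for 9 motifs. These were the nuclear receptor half-site AGGTCA, the extended half-site of oestrogen-related receptors TNAAGGTCA, which contains it, and its direct repeats with a gap of 1 or 4 bases. The others were the cyclic AMP response element TGACGTCA, the GC box GGGGCGGGG, TATAAA, and the NRF1 and MEF2 motifs, whose letters stand in capitals in the *Ppara* and *Esrrg* lines. The MEF2 motif was added after the window of *Esrrg* had been read. The *Rxra* window had 83.0% G and C with 55 CpG dinucleotides, and that of *Ppara* had 74.7% with 30, beside medians of 52.7% and 7 over all 32851 RefSeq windows. The proximal window of *Ppargc1a* had 49.0% G and C with 3 CpG dinucleotides, so that it fell below the median on both counts, unlike *Rxra* and *Ppara*. The cyclic AMP response element of *Ppargc1a* begins 83 bases before the start, and 1.79% of all windows hold this motif. *Esrrg* holds the MEF2 motif, bound by a family of muscle transcription factors, from 22 bases before its 5′ start, and 0.16% of all windows hold it. The letters of this MEF2 motif contain TATAAA on the opposite strand, so the TATAAA match there (13.62% of windows) is not a separate finding. *Ppara* holds the NRF1 motif from 31 bases before its start (0.97% of windows), and *Rxra* holds a GC box on the opposite strand from 40 bases before (11.45% of windows). A GC box was also found in the window of *Ppard*, 94 bases before its start, and 73 of the 300 bases of that window lie in the peak. Of the windows in peaks assigned to these genes, that of *Thrb* alone held the half-site AGGTCA, 184 bases before the start, beside 16.26% of all windows. The extended half-site (1.28% of windows) and the direct repeats (0.04% and 0.02%) were not found in any window of these genes. RefSeq windows were matched for 8 of the 10 genes, and *Thra* and *Ppargc1b* had none.

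The value of a peak is its normalized count, the number of counts in the peak divided by a size factor that corrects each library for depth. Totals in peaks ran from 763133 counts in CtrlCre replicate 2 to 2766416 in Cpt1bcKO replicate 2, and the 10 peaks held between 29 and 1066 counts each in a library. CM identity was checked on fixed markers. All 10 CM markers had peaks, with summed normalized counts of 9103, 8477 and 10118 in CtrlCre and 8244, 9392 and 6723 in Cpt1bcKO, the last being the lowest of the 6 libraries. Among 8 markers each, endothelial cells, fibroblasts and leukocytes had 1 with a tested peak and smooth muscle cells with pericytes had 4. The summed counts of the smooth muscle markers were 147, 198 and 143 in CtrlCre and 78, 48 and 94 in Cpt1bcKO. Of these 4 markers *Acta2* alone was called, with 97, 119 and 71 against 29, 10 and 24, and *Myh11*, *Cnn1* and *Kcnj8* overlapped between genotypes. The part of these markers in the results below was not tested. The peak of the targeted gene *Cpt1b*, at the 5′ part of the gene, checks the mark and not the deletion, also overlaps *Chkb*, and is described with the PPAR targets.

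Most of the 10 peaks were broad. Broad is used here for a width above the 75th percentile of all union peaks, 2169.25 bases, and 8 of the 10 peaks passed it, although *Esrrg* only just did so at 2172. Above the 90th percentile stood 5 peaks. The widest were those of *Ppargc1a* at 8025 bases and of *Ppara* at 7932 bases, both at the 99.2 percentile. *Ppargc1b* followed with 6596 bases, *Rxra* with 4567 and *Thra* with 4019. The peaks of *Esrra* (3000 bases) and *Thrb* (2984) were intermediate within the group. *Ppard* (1063 bases) and *Esrrb* (1052) had peaks at the 30.2 and 29.7 percentile, and none of the 10 was narrow, that is, below the 25th percentile of 947 bases. Partners and paralogues therefore differed in breadth, since PPARα and PPARδ stood near opposite ends of the order. Widths are those of union peaks merged over both genotypes and cannot be compared between them.

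The broad peaks reached into the genes rather than upstream. The *Ppargc1a* peak (chr5:51546844-51554869) lay to 88.2% downstream of the start given in the deposited table and to 95.4% in introns, with its summit 1771 bases inside the gene. The *Ppara* peak (chr15:85734285-85742217) lay to 83.9% downstream and to 81.6% in introns. That of *Ppargc1b* (chr18:61394789-61401385) lay to 85.5% downstream and also covered the starts of *Mir378a*, a microRNA encoded in its intron, and of the microRNA gene model *Gm25301*, so its counts cannot be ascribed to *Ppargc1b* alone. The *Rxra* peak (chr2:27675995-27680562) lay to 73.6% downstream and that of *Thra* (chr11:98740506-98744525) to 67.5%. The *Esrra* peak (chr19:6919927-6922927) lay to 62.7% downstream and overlapped the neighbouring gene *Catsperz*. *Thrb* (chr14:17659159-17662143) was the exception, with 41.8% of its peak downstream of the start and its summit 545 bases upstream of it. The summits of the other 9 peaks lay between 340 and 1771 bases downstream. The *Esrrg* peak (chr1:187608596-187610768) held 3 of the gene's 5 annotated transcript starts. The narrower peaks of *Ppard* (chr17:28232731-28233794) and *Esrrb* (chr12:86361109-86362161) began within 23 and 8 bases of the start.

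Because wide peaks collect more counts, levels were compared between genes only per kilobase (kb) of peak. In CtrlCre CMs *Thrb* had the highest level, 113 ± 10.2 normalized counts per kb (SD, n = 3), followed by *Ppard* with 91.9 ± 7.83 and *Ppargc1b* with 82.6 ± 4.86. *Esrrg* (65.7 ± 1.86) and *Ppargc1a* (65.6 ± 2.87) were nearly equal and close to the median of all tested peaks, 60.4 per kb. *Esrrb* had 59.3 ± 5.41, *Esrra* 51.2 ± 7.71, *Thra* 42.0 ± 4.67, *Ppara* 41.4 ± 4.41 and *Rxra* 37.2 ± 1.0 per kb. Of the neighbours in this order, *Thrb* and *Ppard* did not overlap in their library values, and neither did *Ppargc1b* and *Esrrg*, whereas all other neighbours overlapped. The order thus separated both thyroid hormone receptors, with *Thrb* the highest and *Thra* the third lowest per kb, although *Thra* had the wider peak.

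**Figure D1:**
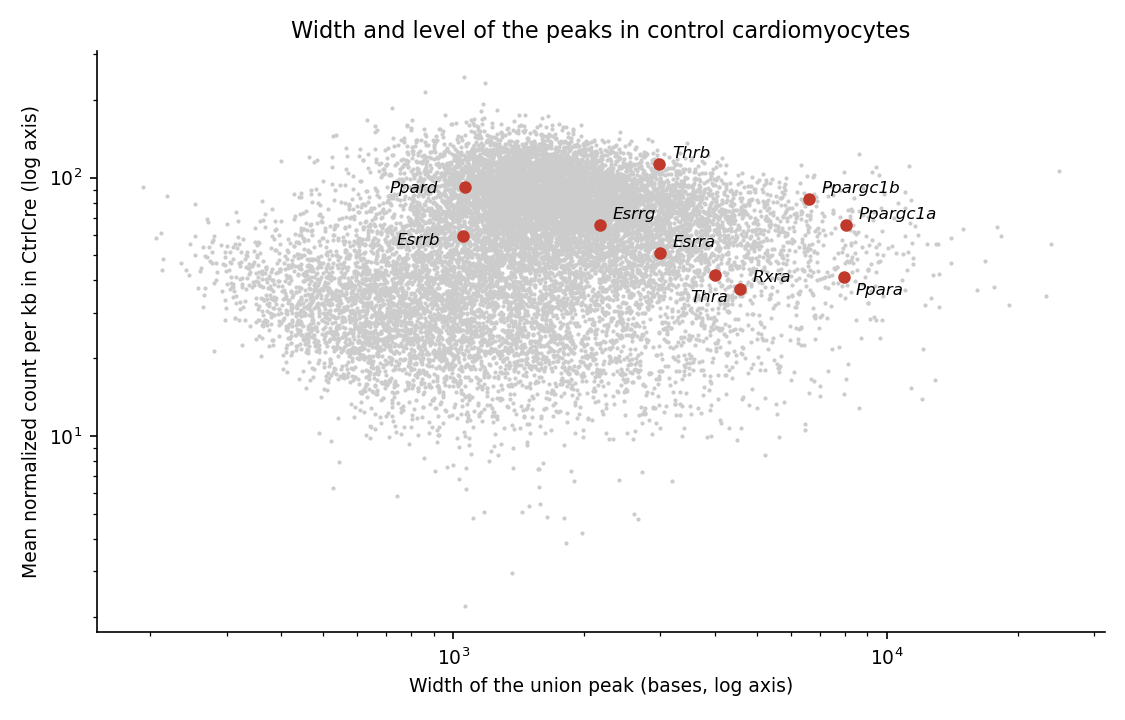
Width of each union peak (bases, log axis) against its mean normalized count per kb over 3 CtrlCre libraries (log axis), with the tested peaks in grey and the 10 receptor and PGC-1 peaks in red. The *Ppara* and *Ppargc1a* peaks lie far to the right at about equal width, and *Ppard* and *Esrrb* lie to the left of the other 8.

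Between the genotypes, normalized H3K4me3 at the 10 peaks differed little. By western blot the study found less total H3K4me3 in Cpt1bcKO CM nuclei. Size factors centre the bulk of peaks, so a loss shared by all peaks would not show in these values. All 10 peaks passed the filter on low values (a minimum mean of 10 across libraries), and none was called at an adjusted p under 0.05 in limma (Benjamini–Hochberg over 15039 tested peaks), where 2.93% of tested peaks were called. None of the 10 was called by limma-voom on the recovered counts either. At an unadjusted p under 0.05, 2 of the 10 passed, *Rxra* lower and *Ppargc1b* higher in Cpt1bcKO CMs, beside 12.8% of tested peaks (5.84% higher and 6.98% lower). At 3 of the 10 peaks the CtrlCre and Cpt1bcKO values stood apart without overlap, *Rxra* lower and *Ppargc1b* and *Esrrg* higher, beside 16.3% of tested peaks (7.8% higher and 8.46% lower). The median log2 difference (Cpt1bcKO minus CtrlCre, on the log2(value + 1) scale) was -0.06 over the 10 peaks and 0.01 over all tested peaks, with 4 of the 10 above 0 and 6 below. For the 8 peaks with an unadjusted p above 0.05, the 95% confidence intervals lay within a fold of 0.703 to 1.29 of the control level.

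**Figure D2:**
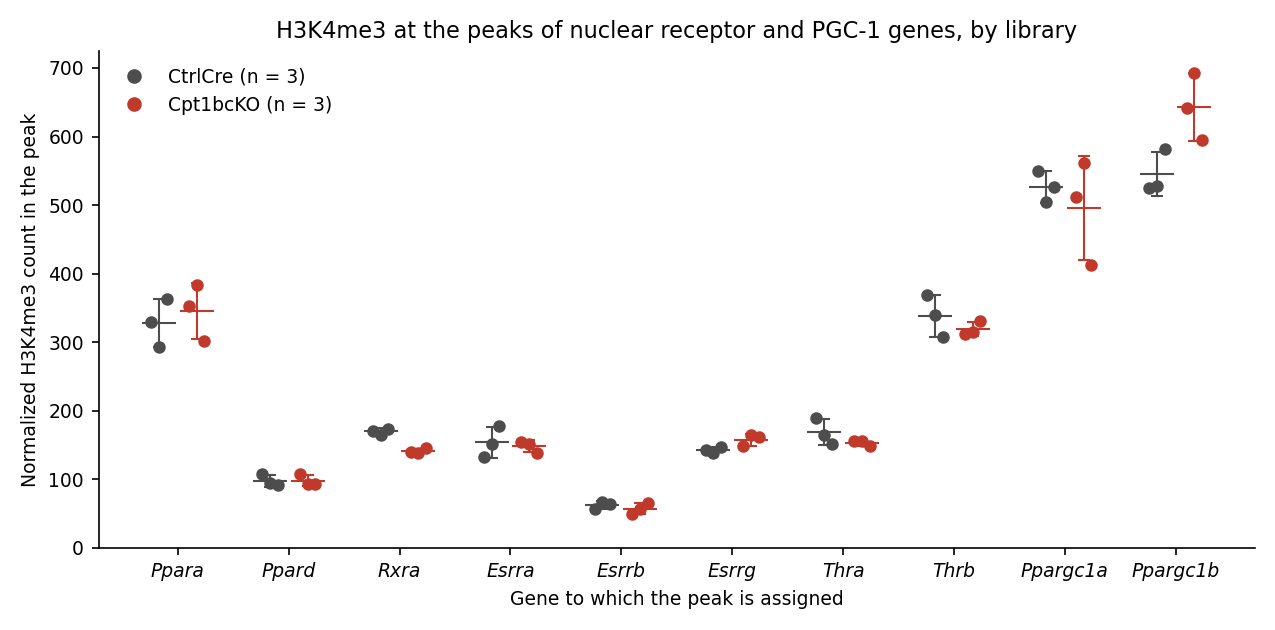
Normalized H3K4me3 counts at the peak of each gene in 3 CtrlCre (grey) and 3 Cpt1bcKO (red) libraries, with points for libraries, horizontal bars for means and error bars for the SD. The groups stand apart at *Rxra*, *Esrrg* and *Ppargc1b* and overlap at the other 7 genes.

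RXRα is the common partner of the PPARs and thyroid hormone receptors, and its gene had the largest difference of the 10. The *Rxra* peak measured 171, 165 and 174 normalized counts in CtrlCre replicates 1 to 3 and 140, 138 and 145 in Cpt1bcKO replicates 1 to 3. Every mutant library was thus below every control library, and the spread within each genotype was small. The mean was 170 ± 4.58 against 141 ± 3.61 (SD over 3 libraries each), which gave a log2 difference of -0.27 (SE 0.11) or a fold of 0.830 (95% confidence interval 0.713 to 0.967), with an unadjusted p of 0.0189 and an adjusted p of 0.247 in limma. Leaving out each library in turn gave differences from -0.29 to -0.25.

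The PPAR genes themselves showed no shift that exceeded the spread of the libraries. *Ppara*, which encodes the main fatty acid sensor of the heart, measured 330, 293 and 363 in CtrlCre and 353, 383 and 302 in Cpt1bcKO. The groups overlapped fully, with a log2 difference of 0.07 (SE 0.11, adjusted p = 0.856 in limma). Its sign rested on single libraries, since it was -0.0040 without Cpt1bcKO replicate 2, -0.0073 without CtrlCre replicate 2 and 0.17 without Cpt1bcKO replicate 3. *Ppard*, for the more widely expressed PPARδ, measured 107, 95 and 91 in CtrlCre and 107, 93 and 93 in Cpt1bcKO, with equal means of 97.7 and a 95% confidence interval of 0.821 to 1.22 for the fold.

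Among the oestrogen-related receptor genes, the peaks assigned to the genes overlapped between genotypes at *Esrra* and *Esrrb* but not at *Esrrg*. *Esrra*, whose product acts with PGC-1α on mitochondrial genes, measured 132, 151 and 178 in CtrlCre and 154, 152 and 138 in Cpt1bcKO. The control libraries alone spanned the mutant values, and the log2 difference of -0.04 (SE 0.12, adjusted p = 0.938 in limma) turned to 0.07 without CtrlCre replicate 3. *Esrrb*, best known from early embryos and stem cells, had the lowest counts of the group, 56, 67 and 64 in CtrlCre and 50, 57 and 65 in Cpt1bcKO. Its interval was the widest, with a fold between 0.703 and 1.20. *Esrrg*, for the receptor tied to the switch to oxidative metabolism after birth, measured 142, 139 and 147 in CtrlCre and 148, 164 and 161 in Cpt1bcKO at its 5′ peak. The lowest mutant value exceeded the highest control value by 1 count, and the log2 difference was 0.14 (SE 0.11, unadjusted p = 0.204, adjusted p = 0.662 in limma).

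Both thyroid hormone receptor genes had slightly lower means in the mutants with overlapping values. *Thra*, the main form in the heart, measured 189, 165 and 152 in CtrlCre and 156, 156 and 148 in Cpt1bcKO, a log2 difference of -0.13 (SE 0.11, adjusted p = 0.707 in limma). *Thrb* measured 369, 339 and 308 in CtrlCre and 312, 315 and 331 in Cpt1bcKO, a difference of -0.08 (SE 0.10, adjusted p = 0.815). At both genes CtrlCre replicate 1 was the highest library, and without it the differences were -0.05 and -0.02.

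The PGC-1 coactivator genes had the highest counts of the group, and their mean differences had opposite signs. *Ppargc1b* measured 525, 528 and 582 in CtrlCre and 641, 693 and 595 in Cpt1bcKO, so that all mutant libraries exceeded all controls. The mean was 545 ± 32.1 in CtrlCre and 643 ± 49.0 in Cpt1bcKO (SD over 3 libraries each), which gave a log2 difference of 0.24 (SE 0.10) or a fold of 1.18 (95% confidence interval 1.02 to 1.36), with an unadjusted p of 0.0263 and an adjusted p of 0.290 in limma. With quantile normalization of the libraries the difference was 0.27 and the adjusted p 0.0478, the single alternative that called any of the 10 peaks by adjusted p. *Ppargc1a* measured 550, 504 and 526 in CtrlCre and 512, 562 and 413 in Cpt1bcKO, the last of which was well below the other 5 libraries. The log2 difference of -0.10 (SE 0.11, adjusted p = 0.794) turned to 0.03 without Cpt1bcKO replicate 3, the library that also had the lowest sum of CM markers.

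**Figure D3:**
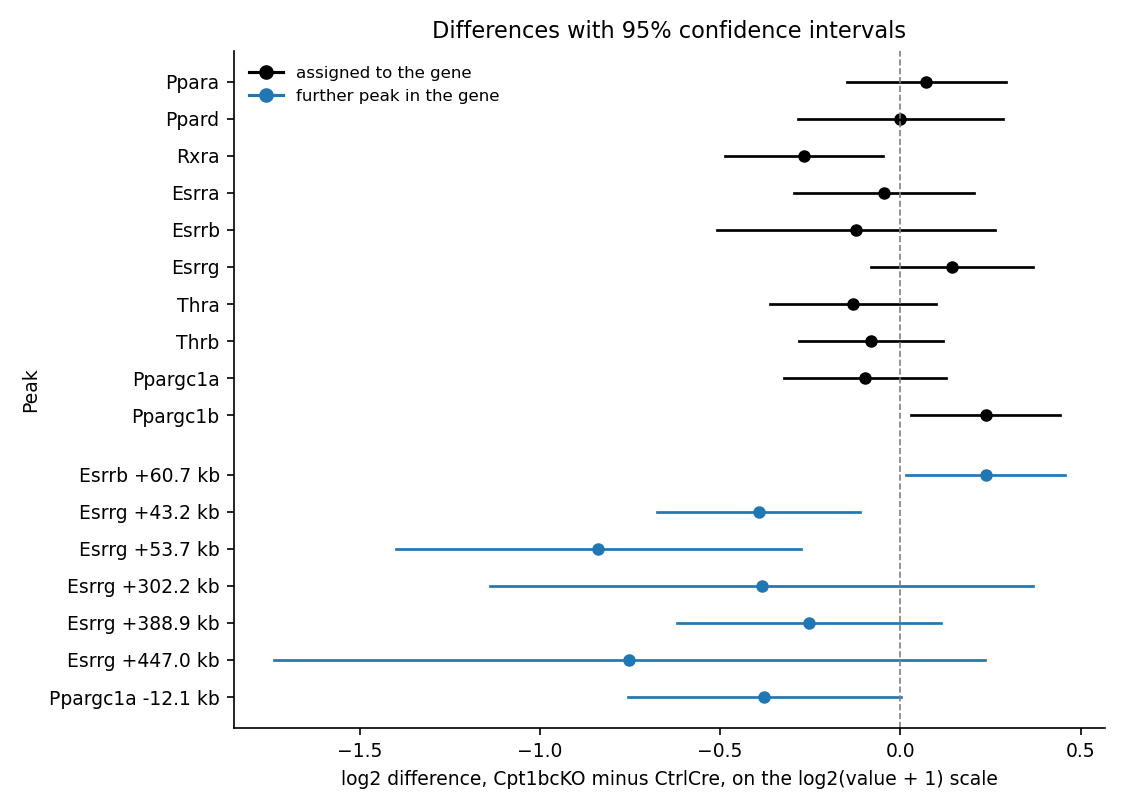
Log2 difference (Cpt1bcKO minus CtrlCre, on the log2(value + 1) scale) with its 95% confidence interval for the 10 peaks assigned to the genes (black) and 7 further peaks in 3 of the genes (blue, named by the distance of the peak centre from the 5′ start in kb). The intervals of *Rxra* and *Ppargc1b* leave out 0 among the black points, and those of *Esrrb* at +60.7 kb and *Esrrg* at +43.2 and +53.7 kb among the blue.

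Peaks over a gene can lie too far from the deposited start to carry its name, so the genes were searched for them in an annotation of the same build. *Esrrg*, *Esrrb* and *Ppargc1a* held 7 further peaks, none of which has a gene in the deposited table, and none of which was called at an adjusted p under 0.05, where 5.12% of the 3708 tested peaks with no assigned gene were called (3.53% lower). At an unadjusted p under 0.05, 3 of the 7 passed, beside 17.2% of these 3708 peaks. Peaks with no assigned gene had a median log2 difference of -0.07, and 59.5% of them were lower in Cpt1bcKO CMs, against 0.02 and 45.3% for tested peaks with a gene.

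At *Esrrg* the 5 further peaks all had lower means in Cpt1bcKO CMs while the 5′ peak did not. The further peak nearest to the 5′ start (chr1:187650185-187654291) covers 2 alternative RefSeq starts of *Esrrg*, of which the sequence of 1 is given above. It holds no *Esrrg* start in the GENCODE annotation, from which transcript starts were otherwise read. This peak measured 122, 130 and 149 in CtrlCre and 97, 120 and 89 in Cpt1bcKO. The groups did not overlap, and the log2 difference was -0.39 (SE 0.14, unadjusted p = 0.00840, adjusted p = 0.155 in limma). The next (chr1:187661190-187664213), 53672 bases from the 5′ start in an intron, measured 45, 72 and 45 against 40, 29 and 21, with a difference of -0.84 (SE 0.27, unadjusted p = 0.00527, adjusted p = 0.116). Here too each mutant library was below each control library. Other gene models start inside both peaks, *Gm36388* 414 bases from the centre of the first and *Gm37929* 660 bases from that of the second. The second peak holds no *Esrrg* start in either annotation, and the signal of the first cannot be ascribed to its RefSeq starts of *Esrrg* alone.

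A further *Esrrg* start lies in the peak at 388912 bases (chr1:187997335-187998547), which measured 66, 63 and 76 in CtrlCre and 54, 58 and 59 in Cpt1bcKO. These groups did not overlap either, with a log2 difference of -0.25 (SE 0.18, unadjusted p = 0.165, adjusted p = 0.614 in limma). The 2 smallest peaks had 13 to 30 normalized counts in CtrlCre and 5 to 20 in Cpt1bcKO and overlapped. Lower values without overlap were thus found at 3 of the 5 further *Esrrg* peaks, beside 13.2% of the tested peaks with no assigned gene (19.4% in both directions), and 2 of the 5 were lower at an unadjusted p under 0.05, beside 11.8%. Summed over the 5 further peaks, the normalized counts were 264, 307 and 314 in CtrlCre and 226, 234 and 187 in Cpt1bcKO. The ratio of this sum to the 5′ peak, which does not depend on the scaling of a library, was 1.86, 2.21 and 2.14 in CtrlCre and 1.53, 1.43 and 1.16 in Cpt1bcKO. It was thus lower in every mutant library than in any control, with a mean of 1.37 ± 0.189 against 2.07 ± 0.184 (SD, n = 3), a log2 difference of -0.60. The two-sided exact permutation p was 0.1, the smallest that 3 libraries against 3 allow, and the ratio was chosen after the values had been seen.

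**Figure D4:**
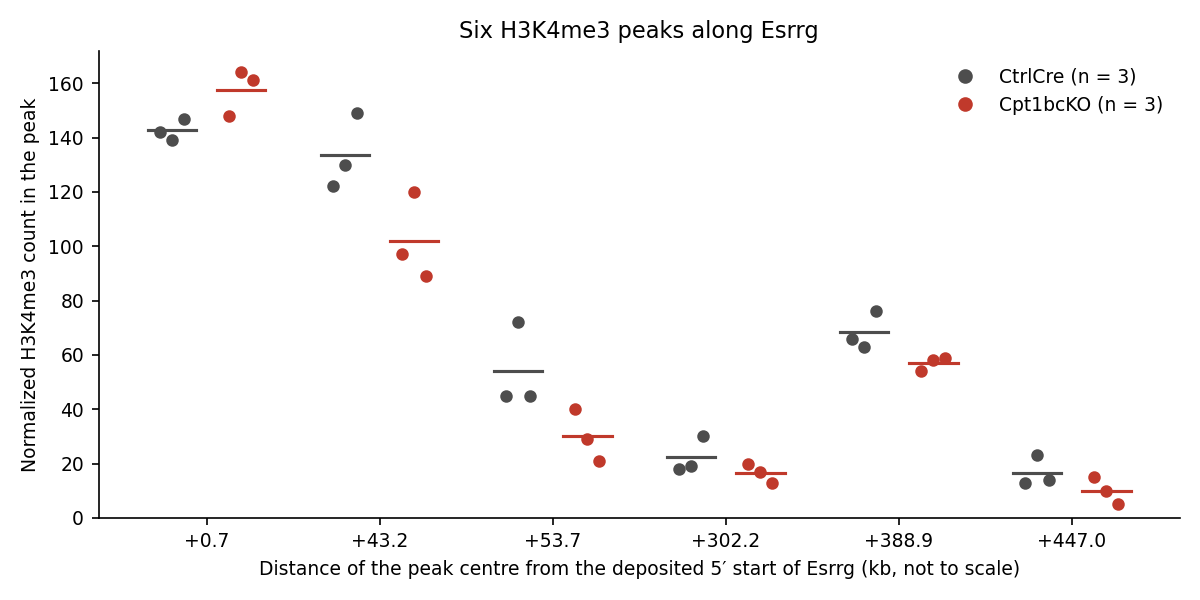
Normalized H3K4me3 counts of 6 peaks along *Esrrg* in CtrlCre (grey) and Cpt1bcKO (red) libraries, ordered by the distance of the peak centre from the deposited 5′ start (kb, spacing not to scale). Points are libraries and bars are means. The red mean is above the grey mean at the 5′ peak and below it at each of the other 5.

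*Esrrb* showed the opposite arrangement. Its further peak (chr12:86420752-86422900), which holds 3 annotated *Esrrb* transcript starts, measured 167, 195 and 163 in CtrlCre and 220, 195 and 203 in Cpt1bcKO, a log2 difference of 0.24 (SE 0.11, unadjusted p = 0.0364, adjusted p = 0.335 in limma). The groups met at 195. This peak held more counts than the peak assigned to the gene in every library, with ratios of 2.98, 2.91 and 2.55 in CtrlCre and 4.40, 3.42 and 3.12 in Cpt1bcKO. It is also wider, 2148 bases against 1052, and the ratios are not corrected for width. Between genotypes the ratios did not overlap (exact permutation p = 0.1, two-sided), and their log2 difference of 0.36 was 0.22 without Cpt1bcKO replicate 1. Here too this p is the smallest that 3 libraries against 3 allow, and the ratio was chosen after the values had been seen.

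The upstream peak of *Ppargc1a* (chr5:51563259-51568829) holds 2 annotated *Ppargc1a* starts, among them the RefSeq start whose sequence is given above. It measured 112, 81 and 124 in CtrlCre and 101, 84 and 60 in Cpt1bcKO. Values overlapped, with a log2 difference of -0.38 (SE 0.18, unadjusted p = 0.0504, adjusted p = 0.391 in limma) that shrank to -0.17 without Cpt1bcKO replicate 3 and was -0.56 without CtrlCre replicate 2. The counts of the upstream peak were 0.204, 0.161 and 0.236 of those of the proximal peak in CtrlCre and 0.197, 0.149 and 0.145 in Cpt1bcKO (exact permutation p = 0.2, two-sided). In each library the peak that covers the proximal start therefore held more counts than the upstream peak. It is also the wider of them, 8025 bases against 5570, and the ratios are not corrected for width. The signal at the starts themselves was not measured.

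To set the regulators beside their partners and targets, 7 lists of genes were followed through the same fit, each gene by its peak with the highest mean. The lists were chosen with earlier results of these data known, so their counts are descriptive and give no independent support. Among other nuclear receptors, 27 of 38 genes had a tested peak, 2 were called higher and none lower in Cpt1bcKO CMs, beside 1.11% and 1.82% of all tested peaks, and the median log2 difference was 0.07. *Nr4a1*, an immediate early gene for an orphan receptor, measured 43, 44 and 65 in CtrlCre and 84, 129 and 124 in Cpt1bcKO, a difference of 1.13 (SE 0.19, adjusted p = 0.00103 in limma). *Pparg*, the PPAR of fat cells, measured 130, 126 and 129 against 199, 159 and 178, a difference of 0.47 (SE 0.11, adjusted p = 0.0216). The count was 1 in place of 2 without CtrlCre replicate 1 or 3 or Cpt1bcKO replicate 1 or 3.

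Coactivators and corepressors of nuclear receptors had 27 of 30 genes tested, none called and a median of 0.03. The smallest p-values were those of *Ep300*, for a histone acetyltransferase, with a difference of 0.22 (adjusted p = 0.299), and of *Cited2*, for a protein that binds its product, with -0.22 (adjusted p = 0.326 in limma). At an unadjusted p under 0.05, 3 of the 27 passed, 2 higher and 1 lower, beside 12.8% of all tested peaks. Mitochondrial biogenesis factors, which act downstream of PGC-1, had 13 of 15 genes tested, none called at either threshold and a median of -0.05. The nuclear respiratory factor gene *Nrf1* had a difference of -0.18 (adjusted p = 0.509) and *Mterf3*, for a regulator of mitochondrial transcription, of -0.17 (adjusted p = 0.544).

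Of the PPAR targets, 26 of 30 genes had a tested peak. Of these, 8 were called higher and 1 lower in Cpt1bcKO CMs, beside 1.11% and 1.82% of all tested peaks, and the median log2 difference was 0.20. The 8 include *Cpt1b*, the gene targeted in the mutants, whose peak also overlaps *Chkb*. *Angptl4*, whose product inhibits lipoprotein lipase, measured 60, 98 and 61 in CtrlCre and 153, 190 and 222 in Cpt1bcKO, a difference of 1.38 (SE 0.17, adjusted p = 1.6e-05 in limma). *Pdk4*, for the kinase that shuts off pyruvate dehydrogenase, measured 239, 300 and 305 against 499, 548 and 314, a difference of 0.66 (adjusted p = 0.0121), with the third mutant library close to the controls. *Acot2*, for a mitochondrial acyl-CoA thioesterase, rose by 0.62 and *Ucp3*, for an uncoupling protein of muscle mitochondria, by 0.59 on the log2 scale (adjusted p = 0.000809 and 0.00128).

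The lipid droplet genes *Plin5* and *Plin2* rose by 0.52 and 0.49, and *Slc25a20*, for the carrier of acylcarnitines into mitochondria, rose by 0.49 (adjusted p from 0.0148 to 0.0236). *Cpt1b* itself, the targeted gene, measured 428, 407 and 436 in CtrlCre and 572, 689 and 568 in Cpt1bcKO, a difference of 0.52 (SE 0.10, adjusted p = 0.00357). *Ucp2*, for an uncoupling protein of many tissues, measured 86, 98 and 123 against 80, 55 and 61, a difference of -0.64 (SE 0.17, adjusted p = 0.0443). Without CtrlCre replicate 1 or without Cpt1bcKO replicate 2, 4 genes of the list were called in place of 9.

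ERR targets, mainly genes of the Krebs cycle and respiratory chain, had 29 of 30 genes tested, none called and a median of 0.00. *Mfn2*, for a protein of mitochondrial fusion, measured 247, 237 and 240 in CtrlCre and 196, 224 and 188 in Cpt1bcKO, a difference of -0.25 (adjusted p = 0.246 in limma). At an unadjusted p under 0.05, 2 of the 29 passed, 1 in each direction, beside 12.8% of all tested peaks.

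Genes of thyroid hormone transport and deiodination had 6 of 10 tested and none called, with a median of -0.01. *Slc7a5*, for an amino acid transporter that also carries the hormone, measured 59, 72 and 84 in CtrlCre and 105, 82 and 89 in Cpt1bcKO, a difference of 0.36 (adjusted p = 0.350 in limma). At an unadjusted p under 0.05, 2 of the 6 passed, 1 in each direction, beside 12.8% of all tested peaks. Thyroid hormone targets of the heart had 19 of 24 genes tested, none called higher and 2 lower, beside 1.11% and 1.82% of all tested peaks, and a median of -0.16. *Mylk3*, for the cardiac kinase of the myosin light chain, measured 101, 81 and 130 in CtrlCre and 50, 42 and 36 in Cpt1bcKO, a difference of -1.25 (SE 0.19, adjusted p = 0.000395). The study itself names *Mylk3* among the genes with reduced H3K4me3 in Cpt1bcKO CMs, so its place in the count is not an independent result. *Hcn4*, for the pacemaker channel, measured 176, 177 and 189 against 123, 119 and 129, a difference of -0.54 (SE 0.11, adjusted p = 0.00474). *Myh6*, *Pln* and *Ryr2* belong to this list and to the CM markers, which had a median difference of -0.15 with none called in limma and, at an unadjusted p under 0.05, 3 of 10 lower and 1 higher, beside 12.8% of all tested peaks in both directions.

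**Figure D5:**
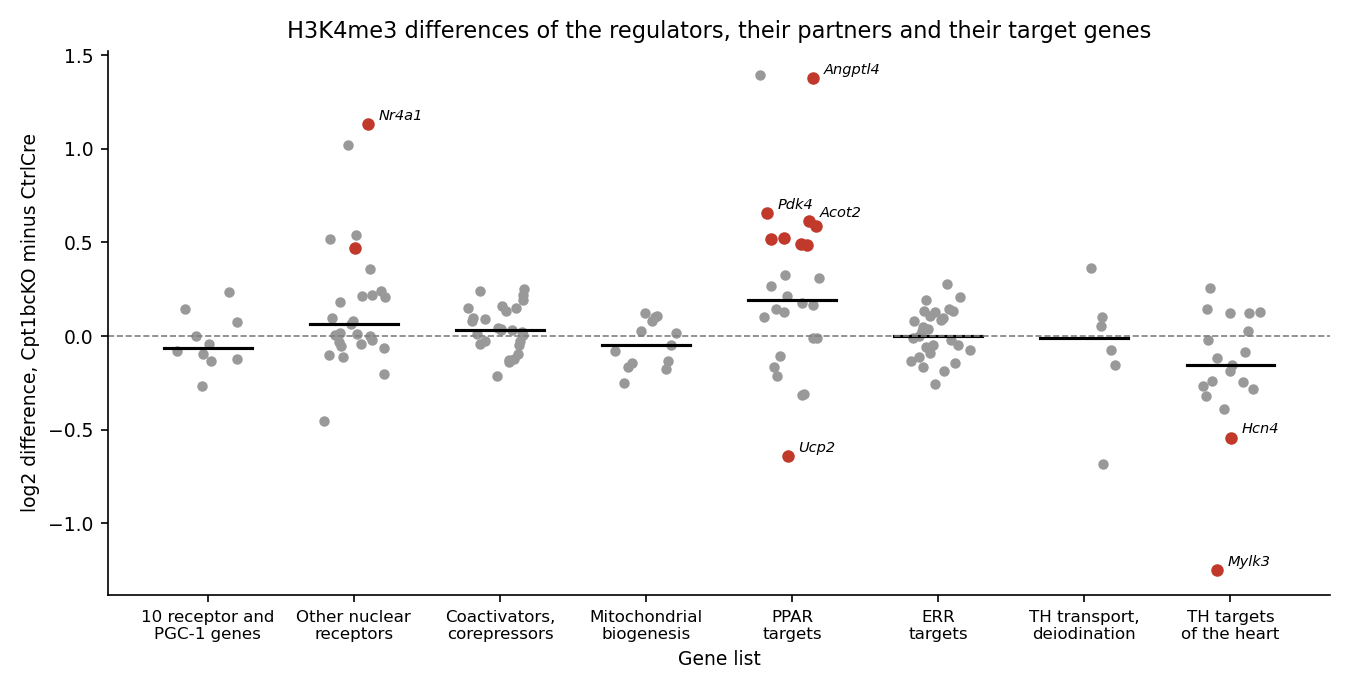
Log2 differences (Cpt1bcKO minus CtrlCre, on the log2(value + 1) scale) of the tested genes of each list, 1 peak a gene, with red for an adjusted p under 0.05 in limma, grey for the rest and a bar for the median. TH stands for thyroid hormone. No red point is among the 10 receptor and PGC-1 genes, and 9 are among the PPAR targets.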

How the data were processed

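H3K4me3 ChIP–seq libraries of 3 CtrlCre and 3 Cpt1bcKO samples were used; the 6 input libraries had no column of their own and entered no comparison here. Per the study's methods and the submitters' processing notes, the authors trimmed reads with Trimmomatic 0.39, aligned them to mm10 (GRCm38) with STAR 2.6.1d, removed duplicates with Picard 2.21.7, called peaks with MUSIC against input at a false discovery rate of 0.2, merged them into union peaks, and divided the counts per peak by DESeq2 1.26.0 size factors. The deposited values per library are the results of this division, rounded by the authors, and were treated as a score. The unrounded mean signal of each genotype, also deposited, served with the rounded values to recover whole counts, which were unique at all 15848 peaks (gap of at most 1.3e-06 to the authors' sums); whether 1 count is 1 read is not stated. The deposited fraction of a peak in the gene body was not tested. The authors' own log2 fold changes and p-values, deposited in the same table, were not used. The authors named peaks by the nearest promoter within 5000 bases.

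Because the values were normalized, limma 3.58.1 (R 4.3.3; lmFit, eBayes with trend) was run on log2(value + 1) with genotype alone, two-sided, over 15039 peaks, leaving out 809 whose mean was under 10, with Benjamini–Hochberg adjustment; the pseudocount of 1 understates changes of low peaks. Size factors centre the bulk of peaks, so a change shared by all peaks is not visible. On simulated counts for this comparison (15039 peaks), 78.5% of 200 changed peaks were recovered and 4.27% of calls were false. Recovery of differences as small as those at the 10 peaks was not tested. The authors annotated peaks with GENCODE vM15; introns, transcript starts and further peaks were read here from GENCODE vM21 on the same build, and 95% intervals are limma's. Groups and replicate numbers came from titles. Same-numbered libraries did not deviate together (correlations of 0.0759, -0.0812 and 0.105), so the numbers did not pair them. No pair of libraries was identical.

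The genes, the lists and the tests were chosen with earlier results of these data known. Named were all 10 genes with their peaks and, in each list, the called genes or, where fewer than 2 were called, those with the smallest p; 2 genes that met this rule are not reported here. Alternatives were another pseudocount (5), no filter, a mean of at least 50, quantile normalization, equal totals, limma-voom on recovered counts, a replicate block, unadjusted p, and each library left out.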

Additional observations from a re-analysis of the deposited data

How the results depend on the processing

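Of the 10 peaks of receptor and PGC-1 genes, 6 kept the sign of their difference under all 13 alternatives. Leaving out single libraries changed the sign at *Ppara* (range -0.0073 to 0.17 on the log2 scale), *Ppargc1a* (-0.19 to 0.027), *Esrra* (-0.15 to 0.066) and *Ppard* (-0.067 to 0.067). *Ppard*, with a difference near 0, was also negative with equal totals (-0.0029), quantile normalization (-0.0036) and limma-voom (-0.044). The number of the 10 peaks called was 1 with quantile normalization (*Ppargc1b*, 0.27, adjusted p = 0.0478) and 2 at an unadjusted p under 0.05, and 0 otherwise. The adjusted p of *Rxra* ranged from 0.182 to 0.464 and that of *Ppargc1b* from 0.0478 to 0.55; the cause was not tested. Counting all 17 peaks over the genes called 0.

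Over all tested peaks, 441 were called (167 higher, 274 lower), against 1929 (879 higher, 1050 lower) at an unadjusted p under 0.05. At that threshold the lists had 4 other nuclear receptors, 3 coactivators and corepressors, 2 genes of thyroid hormone transport, 15 PPAR targets, 2 ERR targets and 6 thyroid hormone targets of the heart. With each library left out in turn, between 229 and 431 peaks were called (85 to 180 higher, 139 to 251 lower), 1 to 2 other nuclear receptors and 4 to 9 PPAR targets; fewer libraries entered these fits. With a replicate block, 370 peaks (138 higher, 232 lower) and 0 of the 10 were called, with 8 PPAR targets and 2 other nuclear receptors; same-numbered libraries shared only a number.

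Depth limits the low peaks. The median SE was 0.15 over all tested peaks and 0.11 over the 10, and for the 2 smallest *Esrrg* peaks the intervals span folds from 0.300 to 1.29, so that changes within this span were not detectable there. Counts in the table are sums over union peaks, and the spread between libraries may be technical.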
